A study of Homo sapiens with 6 samples.

Results

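Nuclear hormone receptors are transcription factors that are switched by small fat-soluble ligands such as steroid hormones, thyroid hormone, vitamin D, fatty acids and bile acids. Most bind DNA through zinc fingers, many as a dimer with a retinoid X receptor (RXR). Many recruit coactivators when ligand is bound or corepressors when it is not. A further group, the orphan receptors, acts without a known natural hormone. In the intestinal epithelium the class is known for vitamin D-dependent calcium uptake, bile acid sensing, and the response to dietary fat and glucocorticoids.

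The receptors described here were 40 genes chosen by name from the 58735 genes of the table, namely the nuclear receptors other than the retinoic acid receptors, the liver X receptors and HNF4A. The rule goes by gene name and holds no measured value, but the list was drawn up with earlier results of these data known. All 40 were found. RNA sequencing was done on 6 libraries labelled SW480, a human colorectal adenocarcinoma cell line grown in Leibovitz's L-15 medium with 10% fetal bovine serum, without added CO2, at 37 °C. By genotype, 3 libraries carried the label DDX39B overexpression and the other 3 the label control. The labels name no vector, clone, selection or treatment time, and do not say whether the 3 libraries of a group came from separate cultures, so the p-values measure only the spread between these libraries, which may be technical.

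DDX39B, the RNA helicase that the labels name as overexpressed, went against its label, with a mean of 14.3 ± 0.62 FPKM under the overexpression label and 38.6 ± 3.7 FPKM under the control label (SD, n = 3 each; FPKM is fragments per kilobase of gene, scaled to library size). Its log2 fold change came to -1.37 (SE 0.079, adjusted p = 6.93e-06 by limma). Groups are named here by label only (overexpression-labelled, control-labelled), and each direction follows the labels as given. Whether the labels of the groups were exchanged, and whether both groups are the same cell line, was not tested; if they were exchanged, every direction given here would turn. Depth was even, at 16963075 to 17463697 reads per library, where 3 reads of a gene 1 kilobase long were worth 0.166 to 0.184 FPKM. The control-labelled libraries differed more among themselves, with a median SD of the log2 values of 0.128 against 0.0592. Of 10 intestinal epithelial markers 7 could be tested and all 7 were higher under the overexpression label, with a summed level of 1972 to 1996 FPKM against 358 to 430 FPKM. Of these 7, 4 (KRT19, CDH1, VIL1 and CDX2) reached a mean of 1 FPKM under the overexpression label only. These 4 passed the filter, a mean of 1 FPKM over the 6 libraries, through that group. The count of markers that were higher is therefore shaped by the filter. Among all 13972 genes tested, 37.5% were called higher and 39.3% lower by limma. EPCAM averaged 171 FPKM against 2.72 FPKM, and the keratins KRT8, KRT18 and KRT19 averaged 681, 610 and 500 FPKM against 179, 202 and 0.251 FPKM. CDH1 averaged 10.99 FPKM against 0.284 FPKM and VIL1 8.88 FPKM against 0.387 FPKM. CDX2, a defining factor of the intestine, had 1059 reads against 0, and CDX1 had 0 reads in all 6. KRT20, a keratin of mature colon cells that was below the filter, averaged 0.061 FPKM against 0.865 FPKM. The summed levels of 8 leukocyte markers were 0.999 to 1.37 FPKM against 0.132 to 0.632 FPKM, with CD3D and MS4A1 at 0. The 7 fibroblast markers summed to 1.54 to 1.67 FPKM against 4.29 to 8.20 FPKM, led by COL1A1 (means of 1.21 against 4.85 FPKM) and PDGFRB (0.201 against 1.41 FPKM), with PDGFRA at 0. The 7 endothelial markers summed to 1.06 to 1.48 FPKM against 36.2 to 50.7 FPKM, of which ESAM made up a mean of 43.5 FPKM, with KDR at 0. The 6 neuronal and neuroendocrine markers summed to 22.1 to 24.0 FPKM against 11.9 to 15.9 FPKM, led by ENO2 (21.4 against 12.7 FPKM) and SYP (1.04 against 0.253 FPKM), with STMN2 at 0. The part of these marker differences in the receptor levels was not tested. In bulk RNA, fewer cells of a type and less RNA per cell cannot be told apart.

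Of the 40 receptors, 20 reached the mean of 1 FPKM over the 6 libraries that was required for a test. Of these 20, 4 were higher under the overexpression label (VDR, PPARD, NR2F2 and NR6A1), 14 were lower, and NR1D1 and NR2C2 did not pass an adjusted p of 0.05 by limma. The 18 calls made up 90.0% of the tested receptors. The background was high: of all 13972 genes tested, 76.8% were called, 37.5% higher and 39.3% lower. The median log2 fold change of the tested receptors was -0.71, against -0.03 over all genes tested, and the median size was 0.90 against 0.62. A call with a log2 fold change of at least 1 in size held for 8 receptors, 2 higher and 6 lower, where 31.2% of all genes tested met it. Groups were separate, with no overlapping value, for 18 of the 20, and for 80.1% of all genes tested. NR3C1, NR4A3 and NR6A1 reached a mean of 1 FPKM in 1 group only and passed the filter through that group.

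**Figure D1:**
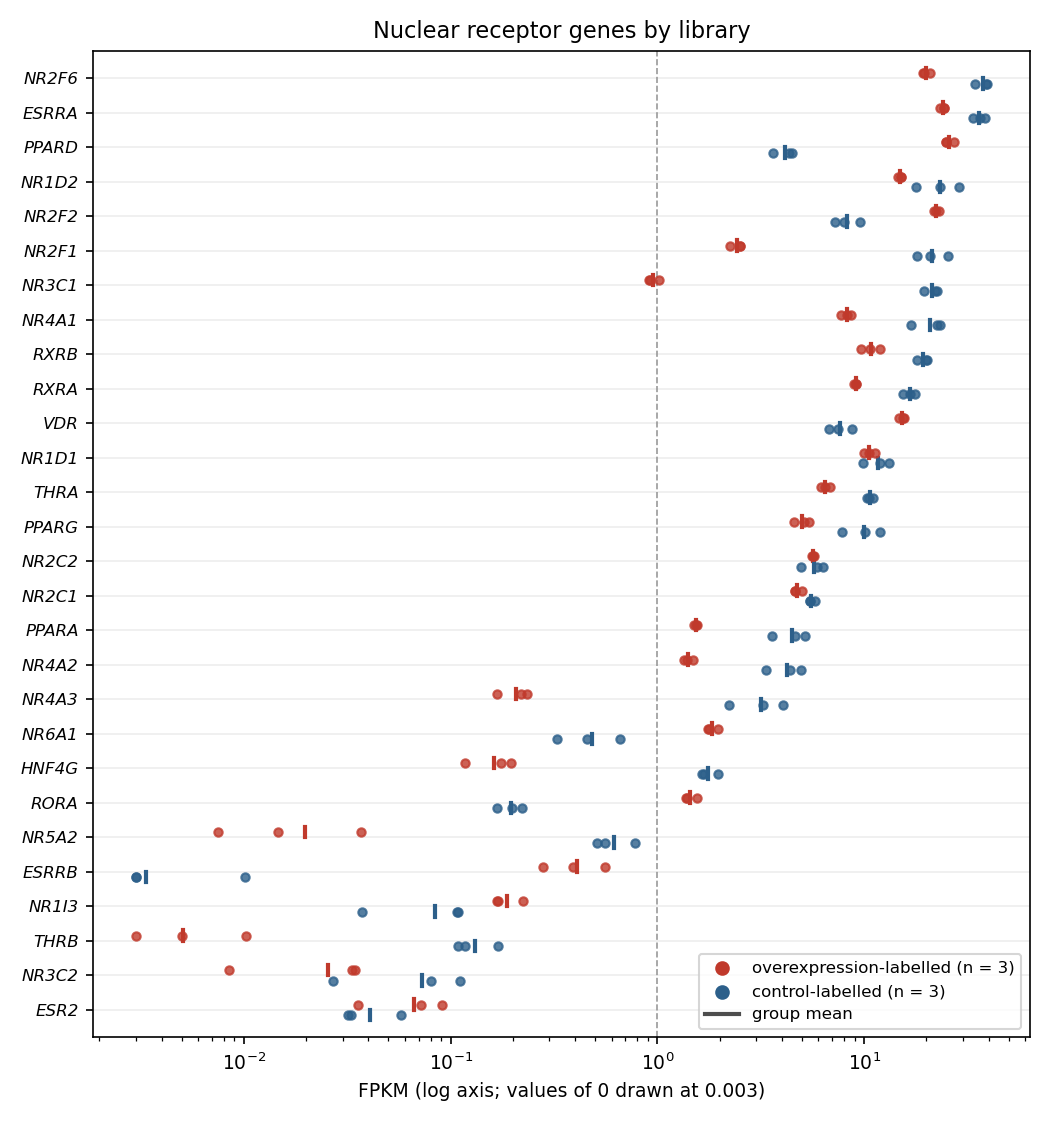
FPKM on a log axis of the 28 receptors that were tested or had at least 30 reads, 1 point per library, with a short bar for the mean of each group (n = 3) and values of 0 drawn at 0.003; the dashed line is at 1 FPKM. NR3C1 averages 0.948 FPKM under the overexpression label and 21.3 FPKM under the control label, while PPARD and NR2F2 are separated the other way.

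ESRRA and NR2F6 were among the 4 most abundant receptors in both groups. In the overexpression-labelled libraries PPARD led, followed by ESRRA, NR2F2 and NR2F6, and the ranges of these 4 over the libraries did not overlap. VDR and NR1D2 came next and overlapped each other, as did RXRB and NR1D1 after them. In the control-labelled libraries NR2F6 and ESRRA were highest and overlapped, and NR1D2, NR2F1, NR3C1, NR4A1 and RXRB followed as a run of overlapping neighbours. A mean of at least 10 FPKM was reached by 8 receptors under the overexpression label and 10 under the control label. The summed level of all 40 was 188 to 196 FPKM against 271 to 280 FPKM. With FPKM rescaled to the sum of reads, these sums were 198 to 205 FPKM against 263 to 269 FPKM.

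**Figure D2:**
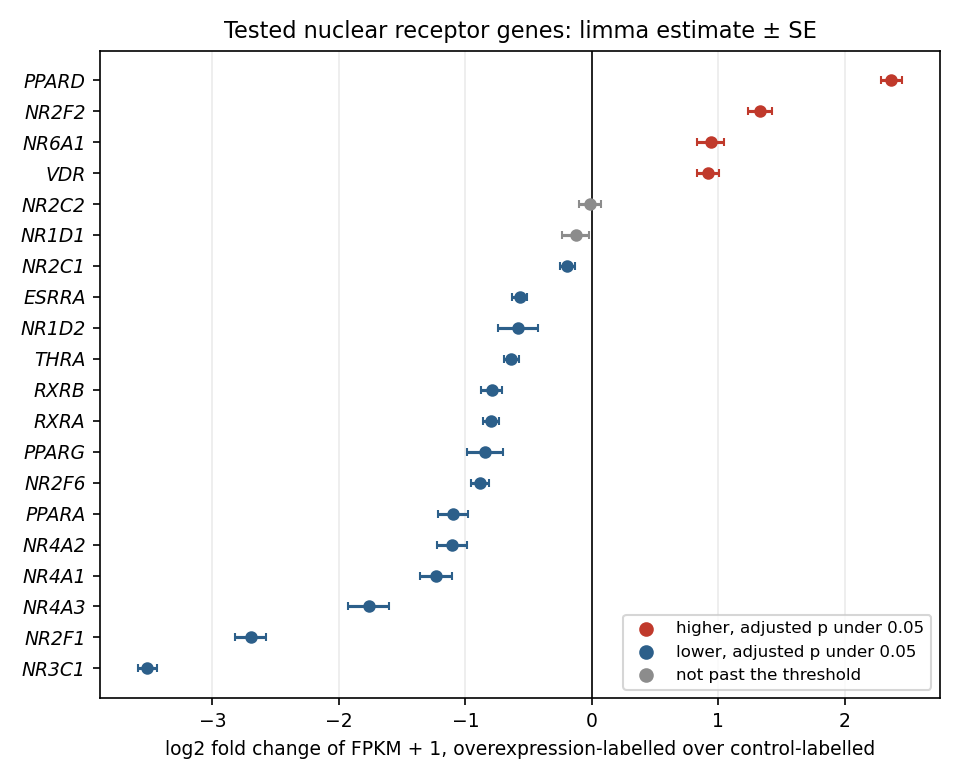
Log2 fold change of FPKM + 1 with its SE as the bar for the 20 receptors tested, overexpression-labelled over control-labelled, from limma, with colour for the call. PPARD has the highest value at 2.37 and NR3C1 the lowest at -3.51, and NR1D1 and NR2C2 lie nearest to 0 at -0.13 and -0.01.

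Among the steroid receptors, NR3C1 was the only member above the filter. NR3C1 (ENSG00000113580, chr5:143277931-143435512, minus strand, GRCh38) encodes the glucocorticoid receptor, which binds cortisol in the cytoplasm and then moves to the nucleus. It measured 0.909, 1.01 and 0.922 FPKM under the overexpression label and 22.0, 22.4 and 19.5 FPKM under the control label. All 3 overexpression-labelled libraries were low and the groups lay far apart without overlap. Group means were 0.948 ± 0.057 FPKM and 21.3 ± 1.6 FPKM (SD, n = 3 each), a 22.5-fold difference on 466 against 9745 reads. The log2 fold change was -3.51 (SE 0.072, adjusted p = 7.84e-08 by limma).

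NR3C1 is known to be transcribed from several first exons, most of them within a CpG-rich stretch. The pair of windows shown, each from 250 bases before to 50 bases after a RefSeq start (GRCh38.p14, minus strand, 5′ to 3′), are the start nearest the 5′ end of the annotated gene and the listed start with the most CpG. They are shown because both feed 1 FPKM value, which does not separate them; capitals mark CG.
NR3C1 distal start, chr5:143435463-143435762: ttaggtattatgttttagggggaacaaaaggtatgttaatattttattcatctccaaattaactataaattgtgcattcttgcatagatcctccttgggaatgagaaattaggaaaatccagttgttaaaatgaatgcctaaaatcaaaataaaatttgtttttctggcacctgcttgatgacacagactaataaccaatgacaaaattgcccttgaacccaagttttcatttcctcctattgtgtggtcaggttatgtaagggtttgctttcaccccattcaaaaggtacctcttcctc
NR3C1 CpG-rich start, chr5:143403637-143403936: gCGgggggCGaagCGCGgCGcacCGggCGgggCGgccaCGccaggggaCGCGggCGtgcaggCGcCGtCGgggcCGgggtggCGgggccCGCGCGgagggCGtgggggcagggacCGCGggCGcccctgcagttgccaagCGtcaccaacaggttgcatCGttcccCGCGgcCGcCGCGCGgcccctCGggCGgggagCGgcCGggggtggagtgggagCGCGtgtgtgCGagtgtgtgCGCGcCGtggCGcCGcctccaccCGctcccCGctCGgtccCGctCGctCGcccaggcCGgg
The distal window held 0 CpG at a GC content of 34.7%, and the other held 51 CpG at 82.3%.

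The other steroid receptors were close to or at 0. ESR2, estrogen receptor beta, had 33 reads against 19, and NR3C2, the mineralocorticoid receptor, 9 against 24 reads. ESR1, estrogen receptor alpha, had 4 against 8 reads. PGR, the progesterone receptor, had 0 reads in all 6 libraries, which allows a level of up to 0.0119 FPKM in a library.

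Of 10 listed targets of the glucocorticoid receptor 9 were tested, and 8 were lower and 1 higher under the overexpression label, with a median log2 fold change of -1.59. For this and each list that follows, the background was the same 37.5% of genes tested called higher and 39.3% called lower. DUSP1, a phosphatase of MAP kinases, measured 3.68, 2.96 and 3.33 FPKM against 96.2, 84.7 and 111 FPKM. That is 29.3-fold lower, with no overlap (log2 fold change -4.50 with SE 0.11, adjusted p = 1.67e-07 by limma). SGK1, a kinase that regulates sodium transport, was 33.5-fold lower (log2 fold change -3.13 with SE 0.17, adjusted p = 5.68e-06 by limma). It reached a mean of 1 FPKM under the control label only and passed the filter through it. CEBPD, a bZIP transcription factor, was 4.16-fold lower (-1.91 with SE 0.054, adjusted p = 2.81e-07 by limma). MT2A, a metallothionein that binds zinc, was the member that was higher, at 386 ± 23 against 59.9 ± 2.9 FPKM (SD, n = 3 each), 6.45-fold (log2 fold change 2.67 with SE 0.063, adjusted p = 1.37e-07 by limma). KLF9, a zinc finger factor also listed as a thyroid hormone target, was 1.42-fold lower with overlapping groups (-0.44 with SE 0.16, adjusted p = 0.0404 by limma), and this call was lost in 9 of 13 alternatives.

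Chaperones hold unliganded steroid receptors in a form that can bind hormone. All 9 listed were tested, and 6 were lower and 3 were not past the threshold, with a median log2 fold change of -0.63. Control replicate 3 was the highest of its group for each of them but FKBP5. HSP90AA1 measured 545, 426 and 1053 FPKM and HSPA8 307, 260 and 558 FPKM under the control label, and neither was past the threshold. The part of this library in the median was not tested. BAG1, a co-chaperone of HSP70, measured 5.74, 5.94 and 5.14 FPKM against 28.0, 24.5 and 32.1 FPKM, 5.02-fold lower (log2 fold change -2.14 with SE 0.10, adjusted p = 3.23e-06 by limma). DNAJB1, an HSP40 protein, averaged 47.8 FPKM under the overexpression label and measured 259, 139 and 611 FPKM under the control label, 7.03-fold lower (-2.53 with SE 0.49, adjusted p = 2.71e-03 by limma). Without control replicate 3, the highest, DNAJB1 was 4.16-fold lower. The control-labelled libraries also differed among themselves for HSP90AB1, the constitutive HSP90, at 781, 694 and 1101 FPKM, and the gene was 1.79-fold lower under the overexpression label (limma adjusted p = 3.22e-03). FKBP4, an immunophilin of the receptor complex, was 2.15-fold lower, with a mean of 36.6 FPKM against 62.7, 47.6 and 126 FPKM for the controls by label (-0.96 with SE 0.33, adjusted p = 0.0316 by limma). That call was lost with no filter (adjusted p = 0.0722) and without control replicate 1 (0.0540), and also without each overexpression-labelled library (0.0739 to 0.0849).

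VDR and THRA moved in opposite directions. VDR (ENSG00000111424, chr12:47841537-47943048, minus strand), the vitamin D receptor, measured 15.5, 14.7 and 15.6 FPKM under the overexpression label and 7.45, 6.72 and 8.71 FPKM under the control label. The groups did not overlap. The level was 2.00-fold higher (log2 fold change 0.92 with SE 0.090, adjusted p = 9.26e-05 by limma). THRA (ENSG00000126351, chr17:40058290-40093867, plus strand), thyroid hormone receptor alpha, measured 6.80, 6.19 and 6.44 FPKM against 11.1, 10.3 and 10.5 FPKM. All overexpression-labelled values were below all control-labelled ones, 1.64-fold lower (-0.64 with SE 0.059, adjusted p = 7.03e-05 by limma). THRB, thyroid hormone receptor beta, had 3 against 72 reads and was not tested; the ratio was 25.9-fold lower, with an exact 95% counting interval of 8.50 to 128.

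Of 8 listed vitamin D receptor targets 2 were tested and they went opposite ways. The higher 1, CYP24A1, reached a mean of 1 FPKM under the overexpression label only and passed the filter through it. The direction count is therefore shaped by the filter. Below the filter, TRPV6 had 105 against 5 reads and CD14 37 against 24, while CAMP had 0 against 10 and THBD 5 against 12. CYP24A1, the enzyme that inactivates vitamin D, measured 6.67, 6.44 and 6.50 FPKM against 0.788, 1.12 and 0.316 FPKM, 8.82-fold higher without overlap (log2 fold change 2.14 with SE 0.17, adjusted p = 3.07e-05 by limma). ATP2B1, a plasma membrane calcium pump, was 4.44-fold lower (-1.91 with SE 0.095, adjusted p = 3.32e-06 by limma). Of 5 listed thyroid hormone targets 3 were tested and all 3 were lower, with a median of -1.02. KLF9, also counted above among the glucocorticoid receptor targets, is 1 of these 3. Its groups overlapped and its call was lost in most alternatives. HR, a corepressor of the thyroid hormone receptor, was 2.81-fold lower, and ME1, the cytosolic malic enzyme, 2.12-fold lower.

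Enzymes that make or break receptor ligands were listed with 18 genes, of which 9 were tested, 5 higher and 4 lower. All 5 that were higher, and 1 of the 4 lower, reached a mean of 1 FPKM in 1 group only and passed the filter through it, so the direction count is shaped by the filter. CYP27A1, a sterol 27-hydroxylase, measured 13.8, 14.4 and 14.3 FPKM against 0.165, 0.0596 and 0.180 FPKM, 105-fold higher (log2 fold change 3.74 with SE 0.069, adjusted p = 5.23e-08 by limma). DIO3, which inactivates thyroid hormone, was 9.46-fold higher (1.74 with SE 0.11, adjusted p = 8.67e-06 by limma). STS, steroid sulfatase, had 0 reads under the overexpression label and 2865 under the control label, at least 1026-fold lower with a group floor of 3 reads.

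The 3 PPARs, receptors for fatty acids and their derivatives, were all tested. PPARD rose and the other two fell. PPARD (ENSG00000112033, chr6:35342558-35428191, plus strand) measured 27.2, 24.8 and 24.8 FPKM under the overexpression label and 4.35, 3.63 and 4.49 FPKM under the control label. No value of one group reached the other. Group means were 25.6 ± 1.4 FPKM and 4.16 ± 0.46 FPKM (SD, n = 3 each), a 6.15-fold difference (log2 fold change 2.37 with SE 0.083, adjusted p = 7.11e-07 by limma).

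PPARG (ENSG00000132170, chr3:12287368-12434356, plus strand), the receptor of fat cell differentiation that is also expressed in colon epithelium, measured 5.09, 4.59 and 5.38 FPKM against 10.1, 7.80 and 11.9 FPKM. It was 1.98-fold lower without overlap (log2 fold change -0.85 with SE 0.14, adjusted p = 1.41e-03 by limma). PPARA (ENSG00000186951, chr22:46150521-46243756, plus strand), the receptor that drives fatty acid oxidation in liver, measured 1.51, 1.56 and 1.54 FPKM against 4.64, 3.58 and 5.18 FPKM. It was 2.91-fold lower, again with separate groups (-1.10 with SE 0.12, adjusted p = 1.36e-04 by limma). PPARD accordingly made up 78.2 to 80.5% of the summed PPAR level under the overexpression label and 20.8 to 24.2% under the control label. The share of PPARG was 14.9 to 17.0% against 52.0 to 55.2%, and that of PPARA 4.47 to 5.04% against 23.8 to 24.3%.

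PPARD is shown with its RefSeq promoter window (GRCh38.p14, plus strand, 5′ to 3′) because it had the highest fold change among the 4 tested receptors that were higher under the overexpression label; capitals mark TGACG, the core letters of the cyclic AMP response element.
PPARD, chr6:35342308-35342607: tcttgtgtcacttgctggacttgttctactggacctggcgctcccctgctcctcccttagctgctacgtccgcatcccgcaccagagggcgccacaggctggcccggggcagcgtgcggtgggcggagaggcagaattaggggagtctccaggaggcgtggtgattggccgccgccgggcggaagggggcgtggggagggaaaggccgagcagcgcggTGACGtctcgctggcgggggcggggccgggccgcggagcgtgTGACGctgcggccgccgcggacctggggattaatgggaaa
It held 2 matches, 1 beginning 32 bases before the start and the other after it.

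Of 12 listed PPAR targets 6 were tested, and 1 was higher, 3 were lower and 2 were not past the threshold, with a median of -0.38. PDK4, a kinase that turns off pyruvate dehydrogenase, measured 1.98, 1.48 and 1.41 FPKM against 22.1, 28.9 and 23.7 FPKM, 15.3-fold lower (log2 fold change -3.30 with SE 0.13, adjusted p = 1.01e-06 by limma). ANGPTL4, an inhibitor of lipoprotein lipase, was 2.44-fold lower and CPT1A, which takes fatty acids into mitochondria, 1.52-fold lower. Of these, ANGPTL4 reached a mean of 1 FPKM under the control label only and passed the filter through it. ACADVL, an enzyme of fatty acid oxidation, was the member that was higher, 1.39-fold (0.47 with SE 0.045, adjusted p = 9.17e-05 by limma).

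**Figure D3:**
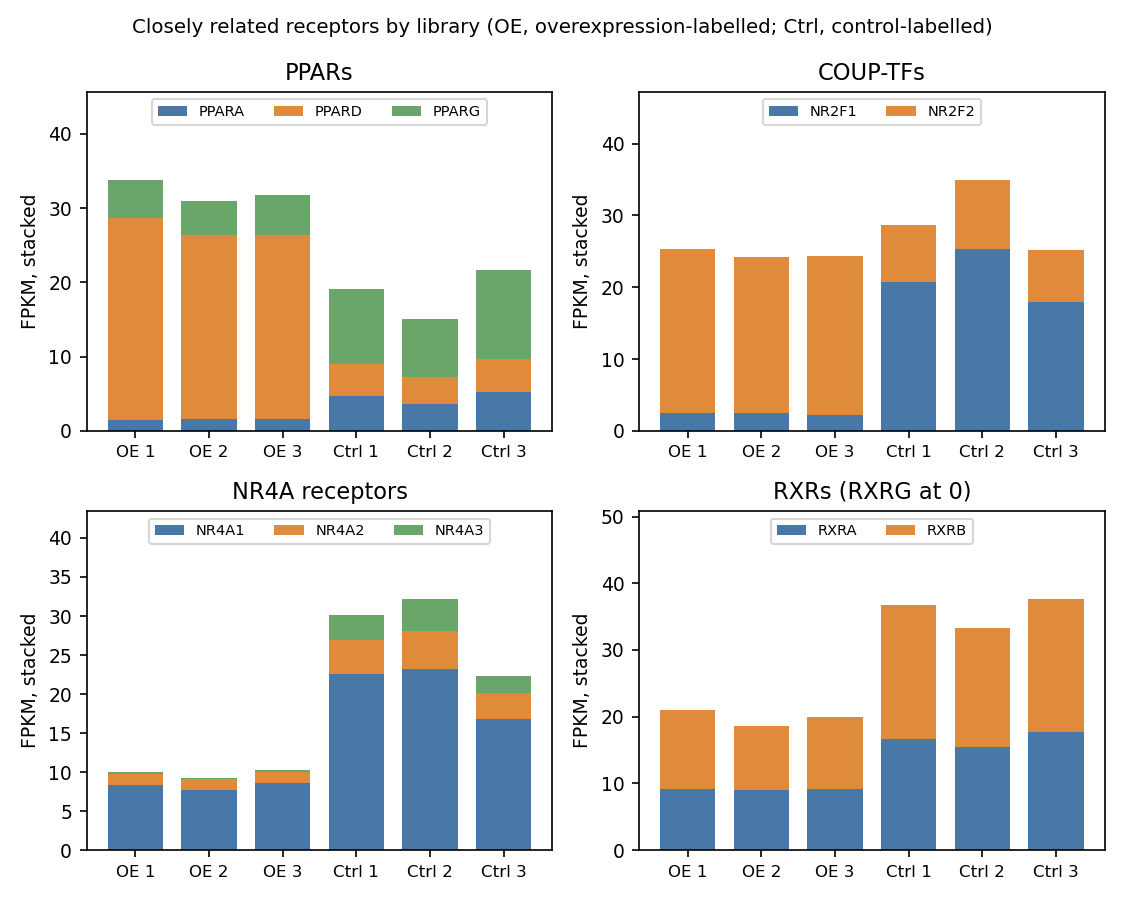
Stacked FPKM of closely related receptors in each of the 6 libraries (OE, overexpression-labelled; Ctrl, control-labelled), with 1 panel each for the PPARs, the COUP-TFs, the NR4A receptors and the RXRs. PPARD fills 78.2 to 80.5% of the PPAR bar under the overexpression label and 20.8 to 24.2% under the control label, and the summed RXR level is 18.6 to 21.0 FPKM against 33.4 to 37.6 FPKM.

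The RXRs, shared partners of many receptors, fell together. RXRA (ENSG00000186350, chr9:134317098-134440585, plus strand) measured 9.16, 8.95 and 9.17 FPKM under the overexpression label and 16.6, 15.4 and 17.7 FPKM under the control label, 1.82-fold lower (log2 fold change -0.80 with SE 0.062, adjusted p = 2.93e-05 by limma). RXRB (ENSG00000204231, chr6:33193588-33200688, minus strand) measured 11.9, 9.69 and 10.7 FPKM against 20.1, 17.9 and 19.96 FPKM, 1.80-fold lower (-0.79 with SE 0.085, adjusted p = 1.44e-04 by limma). Neither gene overlapped between the groups. The ratio of RXRA to RXRB overlapped, at 0.773 to 0.924 against 0.828 to 0.885. Exons of RXRB share 244 bases (6.2% of its length) with SLC39A7 on the other strand, and whether the counting used strand is not given in the sources used here. RXRG had 0 reads in all 6 libraries, which allows up to 0.0683 FPKM in a library.

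Bile acid and xenobiotic receptors were at the limit of detection. NR1H4, the bile acid receptor FXR, had 2 against 6 reads, and NR1I2, the xenobiotic receptor PXR, 1 against 4 reads. NR1I3, the constitutive androstane receptor, had 33 against 14 reads. Of its 3305 exonic bases 661 are shared with TOMM40L on the other strand, which had 454 against 465 reads. Of 12 listed targets of these receptors 5 were tested, and 1 was higher, 3 were lower and 1 was not past the threshold. The 4 called reached a mean of 1 FPKM in 1 group only and passed the filter through it. FGF19, a hormone secreted by the ileum in response to bile acids, measured 120, 112 and 119 FPKM against 0, 0.0484 and 0.0733 FPKM, on 15330 against 5 reads (log2 fold change 6.83 with SE 0.057, adjusted p = 6.83e-09 by limma). FGF19 (chr11:69698232-69704642) lies near CCND1 (chr11:69641087-69654474), a listed estrogen receptor target that was also higher. Whether any receptor has a part in either difference was not tested. ABCC2, an exporter of conjugates, was 136-fold lower at a mean of 0.195 against 26.6 FPKM. ABCB1, the drug efflux pump, was 4.14-fold lower. SLC51B, a subunit of the basolateral bile acid transporter, had 0 against 142 reads and was at least 50.7-fold lower.

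The receptors of the circadian clock are the repressors NR1D1 and NR1D2 (REV-ERB alpha and beta) and the activators RORA and RORB, which compete for the same elements. NR1D1 (ENSG00000126368, chr17:40092787-40100725, minus strand) measured 9.96, 10.5 and 11.2 FPKM against 12.0, 9.92 and 13.2 FPKM. The groups overlapped and the difference did not pass the test (log2 fold change -0.13 with SE 0.10, adjusted p = 0.30 by limma). Without control replicate 2, the lowest of its group, NR1D1 was lower at -0.23 (limma adjusted p = 0.0289). Exons of NR1D1 and THRA share 263 bases on opposite strands, 9.5% of NR1D1 and 3.8% of THRA. NR1D2 (ENSG00000174738, chr3:23945260-23980618, plus strand) measured 14.5, 15.03 and 15.1 FPKM against 23.2, 17.7 and 28.8 FPKM. It was 1.56-fold lower without overlap, although the control-labelled libraries were spread widely (-0.58 with SE 0.16, adjusted p = 0.0132 by limma).

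RORA (ENSG00000069667, chr15:60488284-61229319, minus strand) lay just under the filter and was not tested. It measured 1.38, 1.40 and 1.55 FPKM against 0.198, 0.167 and 0.221 FPKM, a ratio of means 7.39-fold higher on 1317 against 166 reads. When the filter was dropped, its log2 fold change was 1.03 (limma adjusted p = 1.29e-04). RORB had 0 against 23 reads and was at least 8.24-fold lower.

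Of 15 listed clock partners and targets 12 were tested, and 3 were higher, 6 were lower and 3 were not past the threshold, with a median of -0.37. CLOCK and NPAS2, alternative partners of BMAL1, moved in opposite directions. CLOCK measured 4.65, 4.77 and 4.96 FPKM against 1.61, 1.79 and 1.85 FPKM, 2.73-fold higher (log2 fold change 1.07 with SE 0.066, adjusted p = 9.43e-06 by limma), and NPAS2 was 5.33-fold lower (-1.91 with SE 0.18, adjusted p = 6.87e-05 by limma). NFIL3, a repressor whose gene REV-ERB represses, was 6.62-fold lower (-2.47 with SE 0.058, adjusted p = 1.33e-07 by limma). PER1, a clock repressor that is also a glucocorticoid target, was 3.67-fold lower.

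ESRRA (ENSG00000173153, chr11:64305572-64316743, plus strand), an orphan receptor that works with PGC-1 coactivators on mitochondrial genes, was among the most abundant receptors in both groups. It measured 24.3, 23.2 and 24.3 FPKM under the overexpression label and 36.3, 33.6 and 38.2 FPKM under the control label. Without overlap, it was 1.51-fold lower (log2 fold change -0.57 with SE 0.060, adjusted p = 1.38e-04 by limma). It made up 12.3 to 12.4% of the summed receptor level in one group and 12.4 to 13.9% in the other. Exons of ESRRA share 284 bases (9.4%) with TRMT112 on the other strand, which averaged 95.4 FPKM against 103 FPKM. The part of these bases in the ESRRA level was not tested. ESRRB, best known from pluripotent cells, had 130 reads against 1, a level 122-fold higher with an exact 95% counting interval of 21.5 to 4854. ESRRG had 0 reads, which allows up to 0.0169 FPKM.

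All 9 listed targets of ESRRA and PGC-1 were tested, and 6 were lower and 3 were not past the threshold, with a median of -0.42. Besides PDK4, VEGFA, the vascular growth factor, was 8.33-fold lower (log2 fold change -2.54 with SE 0.16, adjusted p = 1.11e-05 by limma). SDHB, a subunit of succinate dehydrogenase, was 1.73-fold lower and ACADM, an enzyme of fatty acid oxidation, 1.61-fold lower. PPARGC1A, which encodes the coactivator PGC-1 alpha, had 0 reads under the overexpression label and measured 4.12, 3.10 and 3.80 FPKM under the control label, at least 713-fold lower on 0 against 1991 reads.

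The close paralogues NR2F1 and NR2F2 (COUP-TFI and COUP-TFII), orphan receptors of development, moved in opposite directions. NR2F1 (ENSG00000175745, chr5:93583224-93594615, plus strand) measured 2.50, 2.52 and 2.23 FPKM under the overexpression label and 20.7, 25.4 and 17.9 FPKM under the control label. The groups were far apart, 8.84-fold lower (log2 fold change -2.70 with SE 0.12, adjusted p = 2.30e-06 by limma). NR2F2 (ENSG00000185551, chr15:96325938-96340263, plus strand) measured 22.9, 21.7 and 22.1 FPKM against 7.97, 9.56 and 7.26 FPKM. It was 2.69-fold higher, again without overlap (1.33 with SE 0.094, adjusted p = 1.83e-05 by limma). The ratio of NR2F2 to NR2F1 was 8.62 to 9.91 against 0.376 to 0.405. Their summed level overlapped between the groups, at 24.2 to 25.4 FPKM against 25.2 to 34.95 FPKM. Exons of NR2F1 share 158 bases (3.7%) with NR2F1-AS1, which had 66 against 285 reads.

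NR2F6 (ENSG00000160113, chr19:17231883-17245940, minus strand), the third COUP-TF-like receptor, measured 19.2, 19.5 and 20.8 FPKM against 38.8, 39.3 and 34.3 FPKM. With no overlap, it was 1.89-fold lower (log2 fold change -0.88 with SE 0.069, adjusted p = 2.89e-05 by limma). The testicular receptors NR2C1 and NR2C2 (TR2 and TR4), which repress through direct repeats, differed little. NR2C1 measured 4.62, 4.98 and 4.61 FPKM against 5.44, 5.44 and 5.78 FPKM. These values did not overlap and passed the test narrowly (-0.19 with SE 0.059, adjusted p = 0.0215 by limma). The call was lost with FPKM rescaled to the sum of reads (-0.10, adjusted p = 0.151), with voom on the reads (-0.12, 0.157), and without overexpression replicate 1 (0.0837) or 3 (0.0843). NR2C2 measured 5.70, 5.64 and 5.61 FPKM against 5.93, 6.33 and 4.93 FPKM, with overlap (-0.01 with SE 0.087, adjusted p = 0.913 by limma). Exons of NR2C2 share 1197 bases (10.1%) with MRPS25 on the other strand, which averaged 9.11 FPKM against 14.4 FPKM. NR2E1 (TLX), a receptor of neural stem cells, had 1 against 0 reads, and NR2E3, a photoreceptor factor, 7 against 11.

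The 3 NR4A receptors are immediate early genes that need no ligand and whose mRNAs rise within minutes of many stimuli, among them cyclic AMP. All 3 were tested and all 3 were lower under the overexpression label. NR4A1 (ENSG00000123358, chr12:52022832-52059507, plus strand; NUR77) measured 8.29, 7.72 and 8.66 FPKM against 22.5, 23.2 and 16.8 FPKM, 2.53-fold lower (log2 fold change -1.23 with SE 0.12, adjusted p = 1.07e-04 by limma). NR4A2 (ENSG00000153234, chr2:156324432-156342348, minus strand; NURR1) measured 1.49, 1.34 and 1.40 FPKM against 4.38, 4.93 and 3.34 FPKM, 3.00-fold lower (-1.10 with SE 0.12, adjusted p = 1.63e-04 by limma). NR4A3 (ENSG00000119508, chr9:99821855-99866891, plus strand; NOR1) measured 0.234, 0.219 and 0.168 FPKM against 3.25, 4.06 and 2.21 FPKM, 15.3-fold lower on 70 against 1001 reads (-1.77 with SE 0.17, adjusted p = 7.42e-05 by limma). In each of these genes control replicate 3 was the lowest and control replicate 2 the highest of its group, and the groups did not overlap. NR4A3 fell from 9.91 to 12.6% of the summed NR4A level in the control-labelled libraries to 1.65 to 2.36% in the others. Exons of NR4A1 share 754 bases (10.3%) with AC025259.3, which had 15 and 16 reads.

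The promoter windows of NR4A3 and NR4A1 (RefSeq, GRCh38.p14, plus strand, 5′ to 3′) are shown because both genes fell and the windows differed in these letters; capitals mark TGACG on either strand.
NR4A3, chr9:99821635-99821934: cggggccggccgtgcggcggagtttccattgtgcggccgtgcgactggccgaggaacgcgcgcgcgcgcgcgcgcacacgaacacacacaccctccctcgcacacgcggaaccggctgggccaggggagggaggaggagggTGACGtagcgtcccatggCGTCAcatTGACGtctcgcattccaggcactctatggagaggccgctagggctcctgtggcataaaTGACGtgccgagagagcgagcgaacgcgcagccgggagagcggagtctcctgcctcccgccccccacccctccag
NR4A1, chr12:52022582-52022881: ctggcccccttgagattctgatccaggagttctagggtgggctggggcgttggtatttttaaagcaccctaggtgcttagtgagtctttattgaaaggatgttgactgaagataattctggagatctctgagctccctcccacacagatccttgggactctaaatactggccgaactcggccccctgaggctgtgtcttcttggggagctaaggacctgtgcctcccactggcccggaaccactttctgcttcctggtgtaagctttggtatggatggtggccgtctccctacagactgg
NR4A3 held 4 matches, beginning 109, 91, 83 and 25 bases before the start, and the NR4A1 window at this start held none of these letters. Another listed NR4A1 window, chr12:52037465-52037764, with 25 CpG at a GC content of 69.7%, also held none. No other NR4A1 window was listed. Any start further into the gene, which ends at 52059507, was therefore not looked at, and the contrast with NR4A3 covers the listed windows only. TGACG was in 24.6% of the windows of all genes, and its part in these levels was not tested.

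NR6A1 (ENSG00000148200, chr9:124517275-124771310, minus strand), the germ cell nuclear factor, measured 1.96, 1.76 and 1.78 FPKM under the overexpression label and 0.327, 0.457 and 0.663 FPKM under the control label. The groups did not overlap. It was 3.80-fold higher (log2 fold change 0.94 with SE 0.10, adjusted p = 1.80e-04 by limma). HNF4G, a fatty acid-binding receptor of the intestine, fell just under the filter. It measured 0.118, 0.196 and 0.175 FPKM against 1.63, 1.69 and 1.95 FPKM, a ratio of means 10.8-fold lower on 42 against 422 reads. With no filter its log2 fold change was -1.24 (limma adjusted p = 1.02e-04). NR5A2 (LRH-1), a regulator of bile acid and crypt gene expression, had 8 against 232 reads, 31.2-fold lower (-0.66, limma adjusted p = 7.52e-04 with no filter), or 55.5-fold without overexpression replicate 3. NR5A1 (SF-1), the steroidogenic factor, had 3 against 0 reads. NR0B2 (SHP), a receptor without a DNA-binding domain, had 6 against 0 reads and lies within NUDC. NR0B1 (DAX1) had 0 reads, which allows up to 0.0835 FPKM.

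With no filter, 36 receptors were tested and 23 were called, 6 higher and 17 lower, where 44.5% of 33913 genes were called. Besides RORA, HNF4G and NR5A2, the members below the filter that were called were ESRRB (log2 fold change 0.49, limma adjusted p = 3.13e-03) and THRB (-0.17, 4.52e-03). NR1I3 was not called (0.13, 0.0520). Of the 20 receptors under the filter 8 had at least 30 reads over the 6 libraries, 8 had 1 to 29 reads, and 4 had 0.

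Coactivators and corepressors set what a bound receptor does. All 14 listed coactivators were tested, and 5 were higher, 7 lower and 2 not past the threshold, with a median log2 fold change of -0.22. Of the 7 lower, 2 reached a mean of 1 FPKM under the control label only and passed the filter through it. NCOA7 measured 2.76, 3.21 and 3.23 FPKM against 19.0, 18.9 and 18.6 FPKM, 6.14-fold lower (log2 fold change -2.29 with SE 0.064, adjusted p = 2.80e-07 by limma). NCOA3 (SRC-3), a steroid receptor coactivator, was 2.66-fold lower (-1.28 with SE 0.16, adjusted p = 2.81e-04 by limma). PPRC1, a relative of PGC-1, was 2.71-fold lower. All 9 corepressors were tested, and 2 were higher, 5 lower and 2 not past the threshold, with a median of -0.19. TBL1X, which exchanges corepressors for coactivators, was 4.43-fold lower (-1.84 with SE 0.086, adjusted p = 2.53e-06 by limma). NRIP1, a corepressor that also binds liganded receptors, was 2.11-fold lower, whereas GPS2, a subunit of a corepressor complex with HDAC3, was 2.68-fold higher (0.96 with SE 0.14, adjusted p = 6.52e-04 by limma). PPARGC1A, at 0 reads in the overexpression-labelled group, lies below the median of the coactivators at the fitted value and at the bound alike.

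Estrogen receptor targets were listed with 8 genes, of which 5 were tested, 2 higher, 2 lower and 1 not past the threshold, with a median of -0.02. CCND1, cyclin D1, measured 666, 655 and 670 FPKM against 33.8, 30.3 and 34.6 FPKM, 20.2-fold higher (log2 fold change 4.30 with SE 0.060, adjusted p = 2.03e-08 by limma). As given above, it lies near FGF19 on chromosome 11. CA12, a carbonic anhydrase, was 105-fold lower (-3.75 with SE 0.091, adjusted p = 1.50e-07 by limma). It reached a mean of 1 FPKM under the control label only and passed the filter through it. XBP1, a factor of the unfolded protein response, was 4.95-fold lower, and IGFBP4, which binds insulin-like growth factors, 2.03-fold higher.

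**Figure D4:**
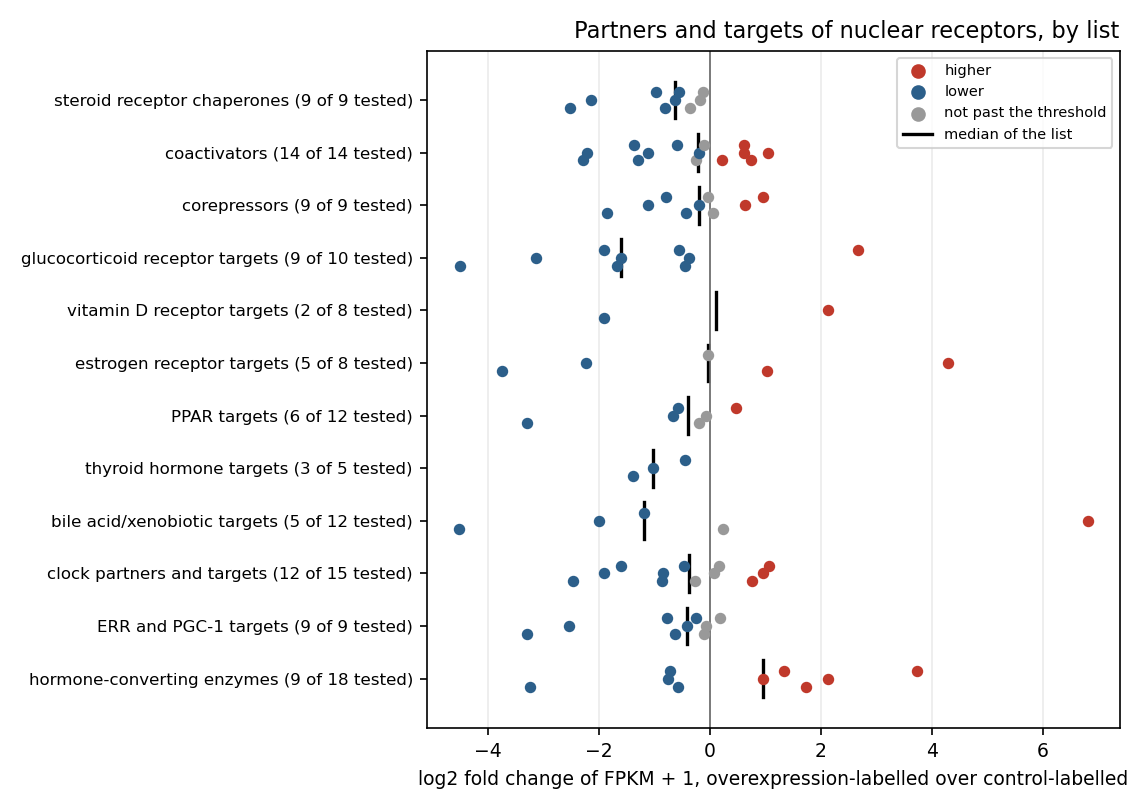
Log2 fold change of FPKM + 1 for each tested gene of the 12 lists of partners and targets, overexpression-labelled over control-labelled, with the median of each list as a bar and colour for the limma call. The glucocorticoid receptor targets have a median of -1.59 with MT2A alone at 2.67. Of the bile acid and xenobiotic targets 4 of 5 tested, and of the hormone-converting enzymes 6 of 9, passed the filter through 1 group only. No weight rests on the bars of those lists. The filter was also passed through 1 group only by 1 of 2 vitamin D, 1 of 9 glucocorticoid and 1 of 6 PPAR targets. This also held for 1 of 5 estrogen receptor targets and 2 of 14 coactivators.

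Promoter letters were compared over the 35 members that matched the RefSeq table by symbol, which gave 81 windows of 300 bases. TGACG on either strand was in 20 of the 81 windows, and in 24.6% of the 35116 windows of all genes. TGACGTCA, the full cyclic AMP element, which contains TGACG, was in 2 of the 81 and in 1.85% of all. AGGTCA, the core letters that many nuclear receptors bind, was in 13 of the 81 windows and in 13.8% of all. GGGCGG, the GC box, was in 39 of the 81 and in 45.0% of all. CTTTGA, the core letters bound by TCF factors, was in 7 of the 81 and in 12.9% of all. Some genes gave several windows, and some of these overlap, so the 81 are not independent. By gene, the mean CpG per window had a median of 26.0 in the 17 tested receptors that matched, 12.0 in the 18 not tested, and 14.0 over 27305 genes. The median GC content was 63.0%, 54.0% and 58.3% in the same order. A match is a description of letters and not of binding.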

How the data were processed

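The authors deposited a table of FPKM per gene and library; the aligner, counter and strand setting were not given in the sources. The build named per the submitters' processing notes was mm10, whereas all 58735 genes matched human GENCODE release 29 (GRCh38) in identifier, start, end, strand and symbol. FPKM multiplied by gene length was divided by the smallest such value above 0 in each library, which was taken to be 1 read. This gave whole reads within 0.001 read for 100% of values above 0. All read counts given here rest on that assumption. The deposited FPKM denominator was 1.04 to 1.05 times the sum of reads in the overexpression-labelled and 0.958 to 0.995 times in the control-labelled libraries.

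The test was limma 3.58.1 (R 4.3.3) with a trend of variance on mean, fitted to log2(FPKM + 1), which understates changes of low genes, two-sided, on genes averaging at least 1 FPKM, with Benjamini-Hochberg adjustment over 13972 genes and a threshold of 0.05. Adjusted p-values in the text are from this test unless another is named. Folds are ratios of mean FPKM. Against a group at 0 they use a group floor of 3 reads, and with 1 to 3 reads an exact 95% interval; both cover counting error only. The steps were tested on simulated data: a first run at an assumed spread between libraries missed its recovery criterion, after which the spread was estimated from these libraries and the criterion loosened, and the second run met it.

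The 40 members, the 12 gene lists and the 5 marker lists were chosen with earlier results of these data known. The text names DDX39B, all members, up to 4 called genes per list by size of change (1 such gene is not reported here), and markers of at least 1 FPKM in a group; KRT20, the markers at 0, the genes that share exons with a member, the motifs and the promoters shown were chosen after values were seen. Promoter windows are RefSeq's (GRCh38.p14); VDR, NR2F6, NR4A2, HNF4G and NR0B2 had no entry used here. The 13 alternatives were a pseudocount of 0.1, no filter, a filter of 5 FPKM, FPKM on the sum of reads, median-ratio scaling, voom on the reads, the replicate block, and each of the 6 libraries left out.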

Additional observations from a re-analysis of the deposited data

How the results depend on the processing

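Of the 20 receptors tested, 18 were called, and 17 to 19 when any 1 library was left out. The count was 17 with FPKM on the sum of reads and with voom on the reads, 18 with a pseudocount of 0.1 and with median-ratio scaling, 14 with a filter of 5 FPKM, which tests fewer genes, and 23 with no filter, which tests 36 receptors. FPKM on the sum of reads moved the median log2 fold change of all genes by 0.09 and voom by 0.11. List genes called higher fell from 20 to 12 with the filter of 5 FPKM. NR2C2, not called, changed sign with FPKM on the sum of reads (0.080), with voom (0.097), and without control replicate 1 (0.013) or 2 (0.053); with 1 library left out its values ran from -0.099 to 0.053, and the cause was not tested. Same-numbered libraries did not deviate together (correlations of -0.022 to 0.0075, and 1 of 6 libraries correlated best with its own number); with the replicate number as a block 17 receptors were called, 4 higher and 13 lower, and NR2C1 lost its call (adjusted p = 0.0623). DDX39B stayed lower in every alternative, from -1.44 to -1.27. Depth limits the receptors with few reads, and with 3 libraries per group an exact permutation test cannot go below p = 0.10.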
